A study of Rattus norvegicus with 4 samples.

Results

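DNA replication genes were followed in NR8383 cells, a macrophage line established from rat lung lavage, exposed for 4 h to TiO2 (NRCWE001), a titanium dioxide powder, at a dose of 3 cm2/cm2. The 39 genes code for the enzymes and loading factors that copy DNA and for the makers of its building blocks. They were chosen by name, through the accession given for each array probe, and 37 of the 39 had a probe, out of 16579 named genes with a value. Mcm5 and Rpa1 had no probe matched by accession. The study has 4 cultures of exposed cells (replicates 1 to 4, biological replicates per the design text), each on its own one-colour array. Each culture thus had its own array, and differences between cultures and between arrays cannot be told apart. All 4 were from cells at 20 passages, part adherent and part floating. Unexposed cells, which the design text also names, were not analysed here, and an effect of the particles was not tested. Each value comes from the RNA of a whole culture, in which fewer replicating cells and less RNA per cell cannot be told apart.

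Before a cell copies its DNA, the origin recognition complex, Cdc6 and Cdt1 load a ring of MCM proteins around the double strand, a step known as licensing. Kinases then activate the ring together with Cdc45 and the GINS complex, which turns it into the helicase that opens the strands. Primase and DNA polymerase alpha lay down primers, polymerases delta and epsilon extend them on a clamp of PCNA, and flap endonuclease and ligase join the short pieces of the lagging strand. Cells at rest carry little of this machinery, and E2F transcription factors switch many of its genes on before S phase. Alveolar macrophages in the lung divide slowly, while a cell line such as NR8383 divides in culture.

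The arrays hold probes, short synthetic strands to which labelled RNA binds, and a probe's brightness in intensity units depends on its own sequence as well as on the amount of transcript. Levels below are therefore log2 of the processed signal minus the 75th percentile of the same array, for the brightest probe of a gene, and the 4 values of a gene are always given for replicates 1, 2, 3 and 4 in that order. They compare one probe across arrays, and a higher level of one gene than of another says nothing about their transcripts. The 75th percentile was 432.9, 346.8, 554.2 and 414.1 units on the 4 arrays, and the median local background 36 to 41 units. Of 14 macrophage markers 12 were well above background on all arrays, against 45.7% of all named genes, and the exceptions were Adgre1 and Marco. Markers of lung epithelium (1 of 10), lymphoid cells (1 of 6), granulocytes and mast cells (1 of 6) and fibroblasts or endothelium (3 of 8) mostly were not. The detected ones were Foxj1, Lck, S100a8 and the endothelial genes Pecam1, Cdh5 and Vwf. Endothelial genes were thus mostly detected, with Kdr the exception, whereas the fibroblast genes Col1a1, Col1a2, Col3a1 and Dcn were not detected on any array. On replicate 1 the part of the array at columns 1 to 72 stood apart, as an earlier analysis of these files had shown. Among 963 probes printed several times on both parts, 38.9% differed between them by over 0.2 there, against 1.03%, 1.44% and 4.74% of 971 probes on replicates 2, 3 and 4. Of the 36 detected replication genes 8 had all spots of their brightest probe at these columns, and for them the SD without replicate 1 is given. Another 10 had spots on both parts, and 6 of these kept their highest and lowest arrays on the spots beyond column 72. The other ones, Mcm2, Fen1, Lig1 and Pold1, are given both ways.

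Transcripts of nearly all measured replication genes were detected in the exposed macrophages. Of the 37 genes with a probe, 36 were well above background on all 4 arrays, and the same held for 45.7% of all named genes. Every role was represented, from licensing to the joining of lagging-strand pieces. The exception was Pola1, the catalytic subunit of polymerase alpha. Its single probe gave signals of 2.96, 3.36, 3.54 and 4.85 units, where the dimmest spots called well above background had 13.5, 16.6, 16.6 and 16.3 units. All 4 arrays were alike in this, so only an upper limit is known for Pola1. With spots beyond column 72 alone, 31 of the genes had a value and 29 were detected on all arrays. The exceptions were Pola1, as with all spots, and Gins2, whose only probe there was not well above background.

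**Figure D1:**
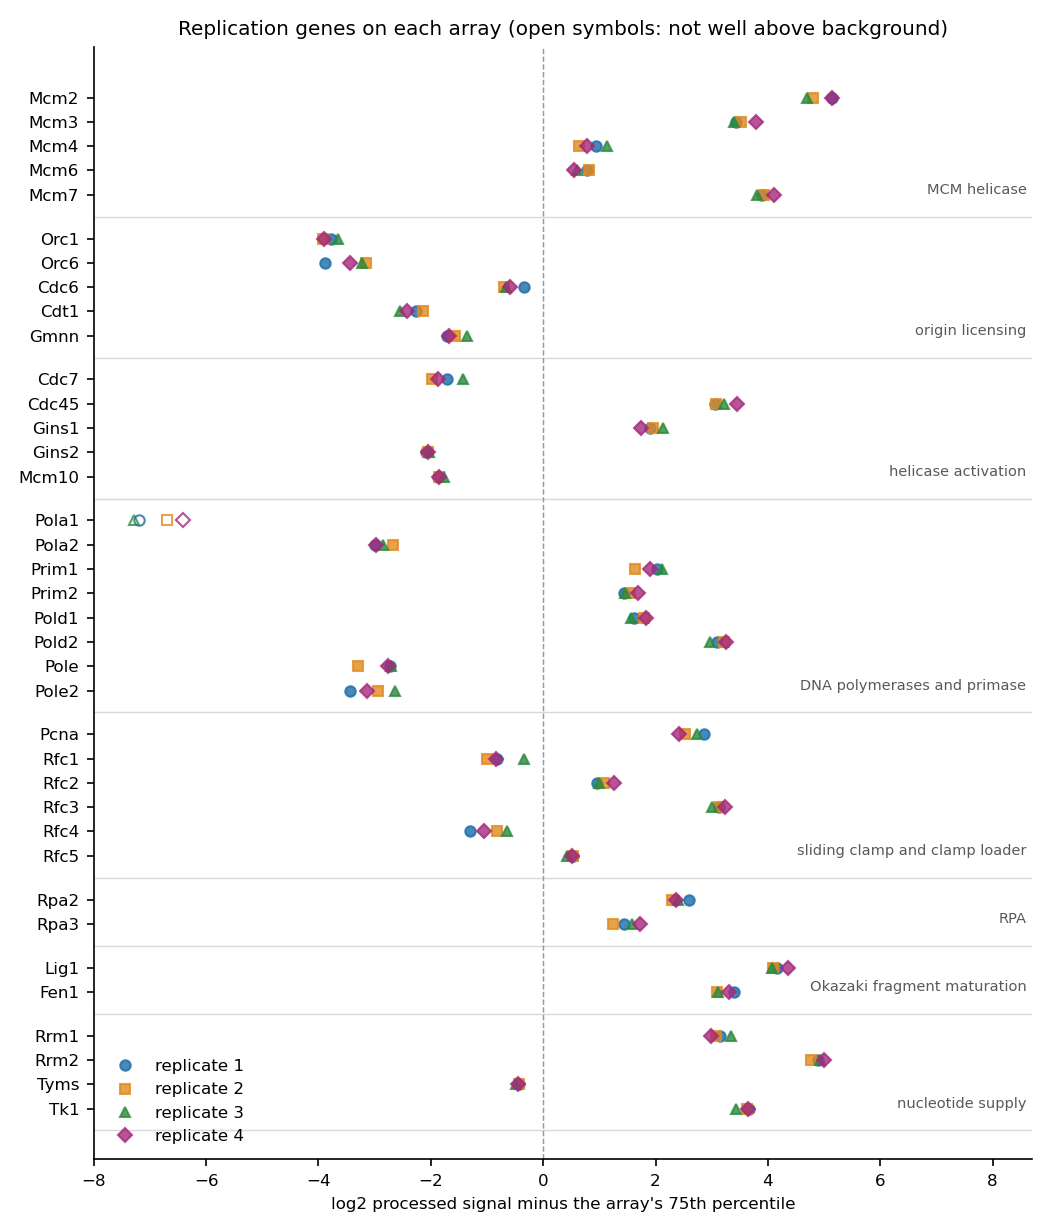
Levels of the 37 measured replication genes on each array, grouped by role. The horizontal axis is the level (log2, 0 at the 75th percentile of the array), each symbol is 1 array, and open symbols mark a probe not well above background. The 4 arrays of a gene lie close together, Pola1 alone has open symbols, and levels of different genes are not comparable because their probes differ.

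Mcm2, Mcm3, Mcm4, Mcm6 and Mcm7, the measured subunits of the ring, were detected on every array. Mcm2 lay at 5.14, 4.80, 4.69 and 5.13, or 4.94 ± 0.23 (SD, n = 4). Replicates 1 and 4 were the high ones, but replicate 1 only through its spots at columns 1 to 72. On the other spots Mcm2 lay at 4.88, 4.80, 4.67 and 5.15, which left replicate 4 alone on top. A second, dimmer Mcm2 probe lay at 2.53, 2.56, 2.35 and 2.58. It was likewise lowest on replicate 3, but replicate 4 was on top only slightly, with replicates 1 and 2 close to it. Mcm3 lay at 3.43, 3.52, 3.40 and 3.78 and Mcm7 at 3.90, 3.93, 3.80 and 4.11, both highest on replicate 4 and lowest on replicate 3. Mcm4 ran the other way, at 0.95, 0.64, 1.14 and 0.79, with its top on replicate 3 and its lowest value on replicate 2. Mcm6 lay at 0.78, 0.81, 0.60 and 0.55 and was lowest on replicate 4. The measured subunits thus did not share an order of arrays, but no SD among them exceeded 0.23, and a difference in order was not tested. For Mcm6 and Mcm7 the SD was 0.13, below the scanner software's own error estimate of 0.14 for a single spot. Mcm6 rests on 1 spot, but Mcm7 averages 10, so the estimate is not the error of the Mcm7 level.

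The MCM genes are shown with their promoters because every one of them with a promoter window held a site of the type that E2F factors bind. E2F factors bind sites of the type TTTGGCGC, TTTCCCGC, TTTGCCGC or TTTCGCGC, and these 8-mers were searched on both strands in RefSeq promoter windows of build GRCr8, from 250 bases before to 50 after each gene's start. Overlapping matches of a site and its reverse complement were counted separately. All 5 MCM ring genes with a window (Mcm2, Mcm3, Mcm5, Mcm6 and Mcm7) held at least 1 match, and each held 2 or more. The 150 bases up to the start site follow for 4 of them and for Gins1 and Tyms, the only replication genes with a whole match inside this stretch. They run 5′ to 3′ along the gene, with the matches in capitals.
Mcm2 (chr4:122918095-122918244, minus strand): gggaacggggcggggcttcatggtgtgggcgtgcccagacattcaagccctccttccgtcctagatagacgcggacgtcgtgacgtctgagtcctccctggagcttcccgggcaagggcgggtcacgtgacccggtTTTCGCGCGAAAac
Mcm5 (chr19:13488663-13488812, plus strand): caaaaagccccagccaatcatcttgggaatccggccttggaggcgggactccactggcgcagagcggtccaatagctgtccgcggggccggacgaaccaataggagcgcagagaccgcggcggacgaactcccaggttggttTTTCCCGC
Mcm6 (chr13:42404353-42404502, minus strand): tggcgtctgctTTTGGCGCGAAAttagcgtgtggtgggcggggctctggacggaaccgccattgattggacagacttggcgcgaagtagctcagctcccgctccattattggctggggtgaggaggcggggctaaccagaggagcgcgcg
Mcm7 (chr12:22163179-22163328, minus strand): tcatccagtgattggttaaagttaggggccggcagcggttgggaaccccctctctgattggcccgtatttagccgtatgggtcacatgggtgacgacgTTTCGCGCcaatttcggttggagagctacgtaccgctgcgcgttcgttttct
Gins1 (chr3:160184770-160184919, plus strand): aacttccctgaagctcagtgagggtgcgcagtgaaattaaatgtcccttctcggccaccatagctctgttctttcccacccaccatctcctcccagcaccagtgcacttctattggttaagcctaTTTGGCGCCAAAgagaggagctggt
Tyms (chr9:120776084-120776233, minus strand): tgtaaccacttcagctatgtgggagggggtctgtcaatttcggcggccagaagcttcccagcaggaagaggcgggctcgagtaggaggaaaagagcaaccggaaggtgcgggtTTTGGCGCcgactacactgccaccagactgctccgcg
In Mcm2 and Gins1 a site and its own reverse complement overlap in 1 run, and in Mcm6 matches of different forms do. The match of Mcm5 shown here ends at the start site, whereas the run of Mcm6 lies near the far end of its stretch. Mcm3 is not shown, as its matches lie across and after the start.

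Over all replication genes, 15 of the 34 with a promoter window held an E2F-type 8-mer (44.1%). The share was 4.57% of 6370 windows of genes detected on all 4 arrays and 2.82% of 19005 windows of protein-coding genes. Other replisome and origin genes, listed separately, had it in 13 of 28 windows (46.4%), whereas 1 of 14 cyclin and kinase genes and 0 of 21 mitosis genes did. Roles differed, with 5 of 5 windows for the MCM ring, 2 of 3 for licensing and 3 of 8 for polymerases and primase. Lower counts were 1 of 6 for the clamp and its loader, 1 of 5 for helicase activation (Gins1) and 1 of 3 for nucleotide supply (Tyms). RPA and lagging-strand joining each had 1 of 2. No window was available for Mcm4, Cdc6, Rrm2, Orc1 and Rpa3. The median GC content was 60% in windows of replication genes and 60.7% in those of detected genes. The CCAAT box, another promoter element, was searched in the same windows as CCAAT on both strands. It stood in 21 of the 34 windows (61.8%), against 39.7% of detected genes, and in 10 of 28 windows of other replisome and origin genes (35.7%). Cyclin and kinase genes had it in 9 of 14 windows (64.3%) and mitosis genes in 14 of 21 (66.7%). These motifs were chosen with the files in view and the shares carry no test. A match is a run of letters, not a measured binding site, and windows without one may hold other forms of the site.

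**Figure D2:**
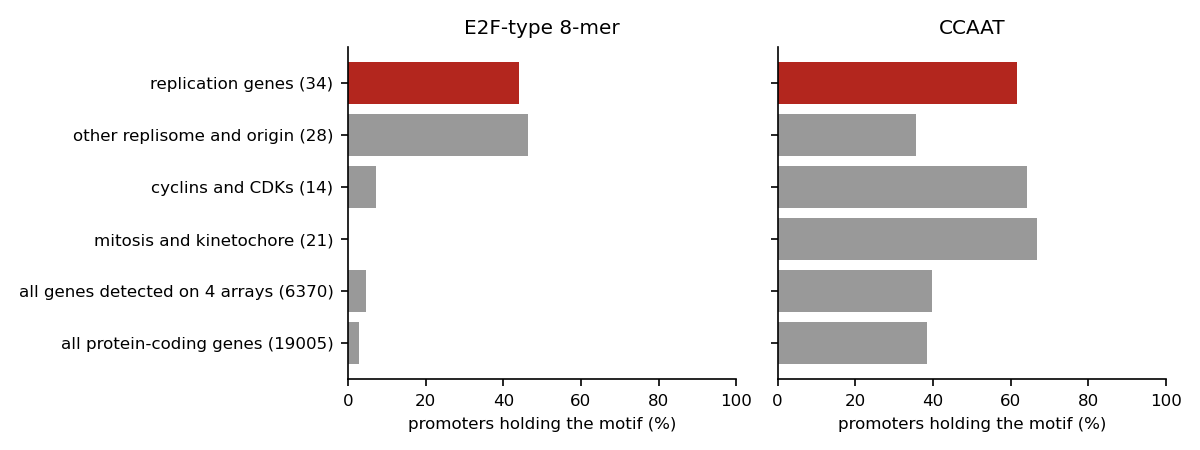
Share of RefSeq promoter windows that hold an E2F-type 8-mer (left) or CCAAT (right) on either strand, in percent, with the number of windows in brackets. Replication genes are in red at the top. They and the other replisome and origin genes stand at 44.1% and 46.4% for the E2F-type 8-mer, and detected genes at 4.57%.

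All 5 licensing genes were detected on every array. Orc1, the ATPase subunit of the origin recognition complex, gave 31.8, 23, 44 and 27.7 units, which is -3.77, -3.91, -3.65 and -3.90 on the log2 scale. Its spot lay at column 33, and its SD was 0.12 with all arrays and 0.15 without replicate 1. Orc6, another subunit, lay at -3.88, -3.14, -3.23 and -3.44, with replicate 1 well below the rest and an SD of 0.33. Its single spot sat at column 5, inside the part of replicate 1 that stood apart, and without replicate 1 its SD was 0.15. Cdc6, which loads the ring, lay at -0.35, -0.70, -0.66 and -0.60 and was highest on replicate 1. Cdt1, its partner, lay at -2.26, -2.15, -2.55 and -2.42, and Gmnn, geminin, the inhibitor that keeps Cdt1 from loading again, at -1.71, -1.56, -1.36 and -1.68. Cdt1 was lowest and geminin highest on replicate 3. Each rests on 1 spot, and neither spread passed the variance test on limma's prior, described below (unadjusted p 0.635 and 0.599).

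Activators of the helicase were all detected. Cdc7, the kinase that triggers the loaded ring, lay at -1.71, -1.99, -1.42 and -1.87, with replicate 3 on top. Cdc45, which travels with the ring, lay at 3.06, 3.08, 3.22 and 3.45 and was highest on replicate 4. The GINS subunit gene Gins1 lay at 1.91, 1.95, 2.13 and 1.75. Its partner Gins2 lay at -2.09, -2.04, -2.03 and -2.05, so its highest array stood 1.04-fold above its lowest. The Gins2 spot lay at column 5, and without replicate 1 the SD was 0.011, against 0.026 with all arrays. Mcm10, which helps activate the ring but is no part of it, was nearly as even, at -1.88, -1.86, -1.77 and -1.86.

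Polymerase and primase genes included both the undetected Pola1 and well measured partners. Pola2, the second subunit of polymerase alpha, lay at -3.00, -2.67, -2.86 and -2.97. Prim1, the primase subunit that makes the RNA primer, lay at 2.02, 1.64, 2.12 and 1.91, and Prim2, the large primase subunit, at 1.45, 1.55, 1.46 and 1.69. Thus 3 of the 4 genes of the polymerase alpha and primase complex were detected on every array. The lagging-strand polymerase delta was represented by its catalytic gene Pold1, at 1.62, 1.79, 1.56 and 1.84, and by Pold2, at 3.09, 3.22, 2.97 and 3.25. Both were highest on replicate 4 and lowest on replicate 3, but for Pold1 the low array changed with the spots used. Its spot beyond column 72 gave 1.48, 1.79, 1.56 and 1.83, lowest on replicate 1. For polymerase epsilon, which copies the leading strand, the catalytic gene Pole lay at -2.73, -3.29, -2.70 and -2.76, with replicate 2 apart from the other arrays, and its gap was large enough for Dixon's ratio to set it apart. Pole2 lay at -3.44, -2.95, -2.65 and -3.14, the largest SD of the 36 genes (0.33), and its 1 spot also lay in the columns of replicate 1 that stood apart (0.25 without that array).

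Pcna, the sliding clamp, gave 3149.8, 2001, 3681 and 2204 units, or 2.86, 2.53, 2.73 and 2.41 relative to each array's 75th percentile. Replicates 1 and 3 were above replicates 2 and 4, with 1.37-fold between the highest and the lowest. The clamp loader opens this ring and consists of a large subunit, Rfc1, and small subunits coded by Rfc2 to Rfc5. Rfc1 lay at -0.83, -0.99, -0.34 and -0.84, highest on replicate 3. Rfc4 lay at -1.30, -0.81, -0.64 and -1.06, also highest on replicate 3 and lowest on replicate 1, and both genes had their only spot at columns 1 to 72. Without replicate 1 the SD of Rfc1 was 0.34, against 0.28 with all arrays. That of Rfc4 was 0.21, against 0.29. The other small subunits had SDs of 0.13, 0.09 and 0.05. Rfc2 lay at 0.95, 1.09, 0.99 and 1.25, Rfc3 at 3.13, 3.13, 3.01 and 3.24 and Rfc5 at 0.53, 0.53, 0.43 and 0.52, where replicate 3 was slightly below 3 nearly equal values. Rfc5 and Pole were the 2 of the 36 genes with 1 array apart by Dixon's ratio, which held for 5.46% of all tested genes.

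Single-stranded DNA at the fork is covered by the RPA complex, of which Rpa2 and Rpa3 were measured. Rpa2 lay at 2.59, 2.28, 2.39 and 2.36, highest on replicate 1, and Rpa3 at 1.45, 1.24, 1.59 and 1.72, highest on replicate 4. On replicate 2 both were at their lowest. The only Rpa2 spot lay at column 65, so its top rests on the part of replicate 1 that stood apart, and without that array its SD was 0.06, against 0.13. The lagging strand is finished by Fen1, the flap endonuclease, and Lig1, DNA ligase I. Fen1 lay at 3.39, 3.09, 3.12 and 3.31 and Lig1 at 4.17, 4.10, 4.08 and 4.36. For Fen1 replicate 1 was on top with all spots, but on the spots beyond column 72 the levels were 3.24, 3.09, 3.11 and 3.32, with replicate 4 on top. Lig1 there lay at 3.99, 4.12, 4.11 and 4.36, lowest on replicate 1 in place of replicate 3.

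Nucleotide supply genes had SDs between 0.03 and 0.15. Rrm1 and Rrm2 code for the large and small subunits of ribonucleotide reductase, which makes deoxynucleotides. Rrm1 lay at 3.14, 3.07, 3.34 and 2.99 and Rrm2, the subunit whose amount follows S phase, at 4.90, 4.76, 4.93 and 5.00. Tyms, thymidylate synthase, lay at -0.43, -0.42, -0.48 and -0.45, so its arrays spanned 1.04-fold. Tk1, the thymidine kinase of dividing cells, lay at 3.66, 3.62, 3.42 and 3.65, with replicate 3 below the others. Both spots of this Tk1 probe lay at columns 1 to 72, and the SD was 0.11 with all arrays and 0.12 without replicate 1. A second, dimmer Tk1 probe at column 123 lay at 0.70, 0.69, 0.51 and 0.68. Both probes were highest on replicate 1 and lowest on replicate 3.

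Related genes outside the 39 were mostly detected too, where 45.7% of all named genes were detected on all 4 arrays. Of 26 other replisome and origin genes with a probe, 21 were well above background on all arrays. Orc2, Orc5 and Top1 were so on 1 or 2 arrays, and Mcm9 and Pole4 on none. Dbf4, the activating partner of the Cdc7 kinase, lay at -1.35, -1.92, -0.84 and -1.90, an SD of 0.52, and like Cdc7 it was highest on replicate 3 and lowest on replicate 2. Its unadjusted p by the variance test on limma's prior, described next, was 0.00171 and its adjusted p 0.14. Of 17 other nucleotide supply genes 15 were detected on all arrays. Dck, deoxycytidine kinase, was so on 3, as replicate 1 lay at -5.93 and the others between -3.70 and -3.16. Rrm2b, a small reductase subunit induced by p53, was not well above background on any. Chromatin assembly genes were detected in 5 of 7 cases and E2F and pocket protein genes in 9 of 11, where E2f7 was well above background on 1 array and Rbl1 on none. Among cyclin and kinase genes 16 of 18 were detected on all arrays, and among mitosis genes 20 of 21. None of these 6 lists' tested genes was called more variable between arrays (F test on limma's prior, adjusted p over 7570 genes). By the same test 10 of the 86 had an unadjusted p under 0.05 (11.6%, against 6.67% of all tested genes).

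No detected replication gene had a spread between arrays that passed the test. Each gene's variance was set against limma's prior for genes of its level by an upper-tail F test, with p adjusted over 7570 genes. It called 39 of the 7570 (0.515%), and 0 of the 36. At an unadjusted p under 0.05 it found 505 genes (6.67%), and again 0 of the 36. The lowest unadjusted p, 0.0818, belonged to Rfc1, whose adjusted p was 0.874. With 4 arrays the test sees large spreads alone, and steadiness is not established for any single gene. The median SD was 0.149 for replication genes and 0.163 for all tested genes. This order was not kept beyond column 72 (0.157 against 0.154) or without replicate 3 (0.139 against 0.136). The scanner software's own error estimate for a single spot combines background noise with a share of the signal. Its median was 0.144 on the log2 scale for replication genes. Levels of probes printed several times average their spots, so for them the estimate is not the error of the level. The SD between arrays was below that estimate for 17 of the 36 genes, against 43.1% of all tested genes. From the lowest to the highest array a replication gene spanned 1.26-fold at the median and 1.74-fold at most (Pole2), and 5 genes exceeded 1.5-fold (Orc6, Pole, Pole2, Rfc1 and Rfc4), as did 18.3% of all tested genes. Of these 5 only Pole had its spot beyond column 72, and without replicate 1 the count was 2 (Pole and Rfc1), against 10.7% of all genes.

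**Figure D3:**
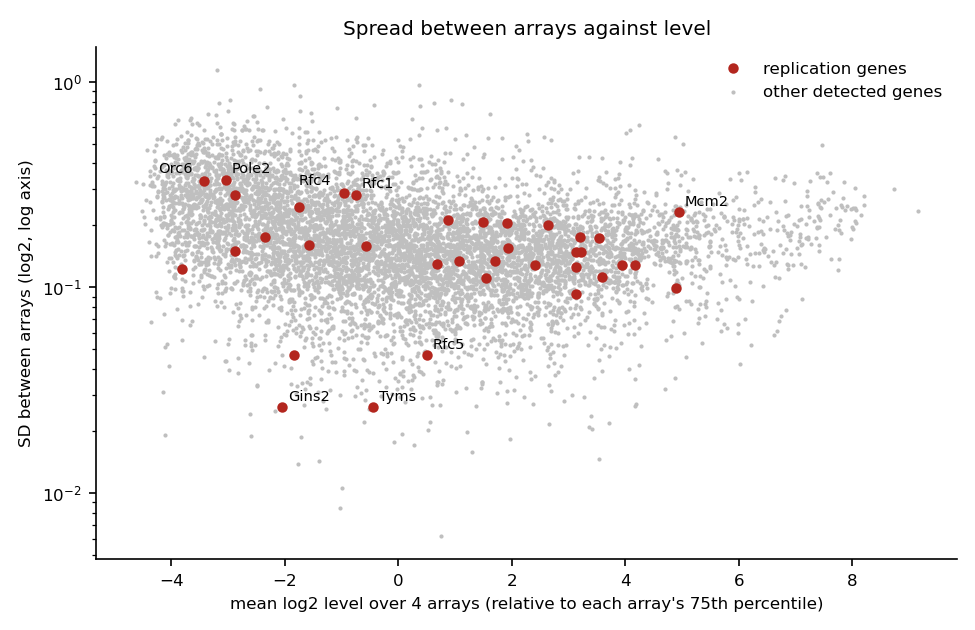
SD between the 4 arrays (log2 units, on a log axis) against mean level relative to each array's 75th percentile. Red points are the 36 detected replication genes and grey points the other detected genes. The red points lie within the grey cloud, from Gins2 and Tyms at 0.03 to Pole2 at 0.33.

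The array on which a gene stood highest was not shared across the machinery. Of the 36 genes, 13 were highest on replicate 3 (36.1%, against 19% of all tested genes) and 11 were lowest there (30.6%, against 45.3%). The 13 hold Mcm4, Cdc7, Gins1, Prim1, Rfc1, Rfc4 and Rrm1, and the 11 hold Mcm2, Mcm3, Mcm7, Pold1, Pold2, Rfc3 and Lig1. Probes of the 13 were mostly dim, with mean levels such as -3.81 (Orc1), -2.87 (Pole) and -0.75 (Rfc1). Exceptions were Rrm1 (3.14), Gins1 (1.93), Prim1 (1.92) and Mcm4 (0.88). Probes of the 11 were mostly bright, as for Mcm2 (4.94), Lig1 (4.17) and Mcm3 (3.53). Cdt1 (-2.34), Tyms (-0.45) and Rfc5 (0.50) were the exceptions there. Whether the split follows probe brightness rather than role was not tested. Replicate 4 was highest for 11 genes (30.6%, against 33.6%) and lowest for 4 (11.1%, against 16.2%). Replicate 1 was highest for 6 (16.7%, against 25.7%) and lowest for 10 (27.8%, against 20.7%), and replicate 2 was highest for 6 (16.7%, against 21.7%) and lowest for 11 (30.6%, against 17.8%). The median deviation from the mean of the arrays was -0.0041, -0.0087, 0.014 and -0.0066 for replication genes, against 0.0049, 0.021, -0.077 and 0.049 for all tested genes. On replicate 3 the replication genes thus kept a median near their own mean while the median of all genes lay below. For the 29 genes detected beyond column 72 the median on replicate 3 was -0.037, against -0.074 for all genes there, and replicate 4, not replicate 3, was highest for the most genes. There 3, 5, 8 and 13 of the 29 were highest on replicates 1 to 4, against 17.3%, 23.1%, 19.7% and 39.9% of 4963 genes. The lowest array was replicate 1 to 4 for 8, 8, 9 and 4 of them, against 18.1%, 19.4%, 45.5% and 17% of all genes. These values come with no test, because each array is 1 culture and the choice of scale moves them.

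**Figure D4:**
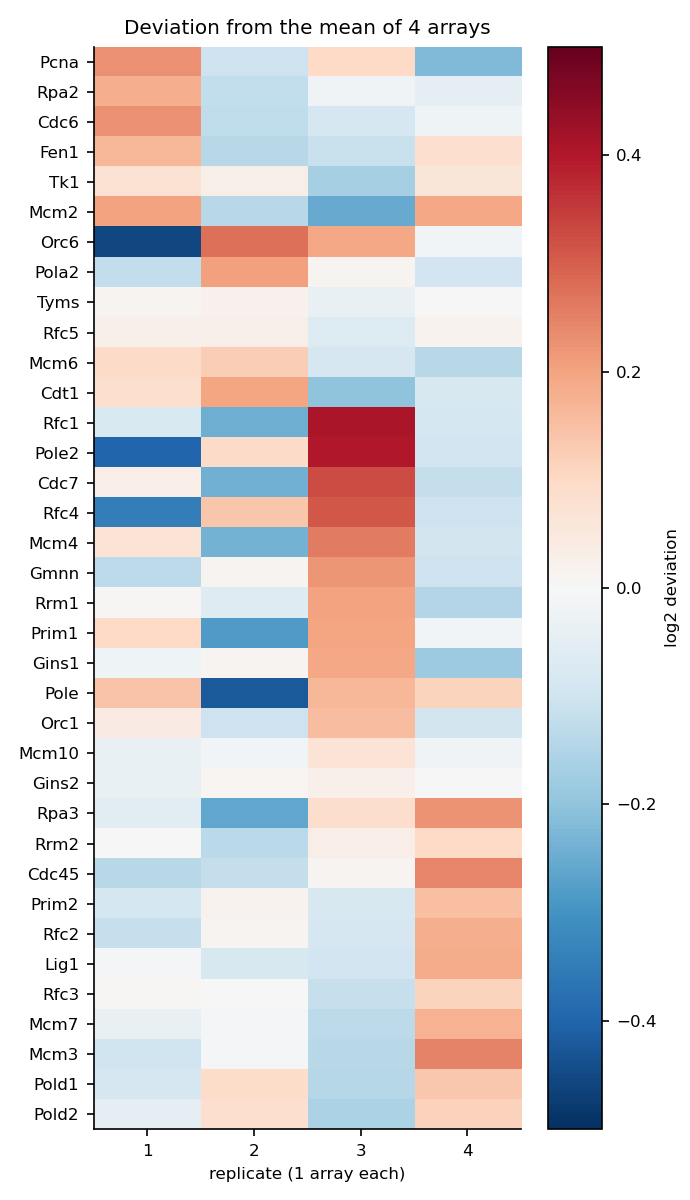
Deviation of each detected replication gene from its mean over the 4 arrays, in log2 units (red above, blue below). Rows are genes, ordered by the replicate on which they were highest, and columns are replicates 1 to 4. The block of 13 genes that is red on replicate 3, from Rfc1 to Gins2, stands above the block from Prim2 to Pold2 that is blue there and red on replicate 4.

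Different probes of a gene offer a check within the same RNA. Of 8 replication genes with several probes detected on all arrays, 6 had their 2 brightest probes highest on the same array and 6 had them lowest on the same array, against 44% and 47.3% of 1339 genes. All 3 probes of Mcm4 were highest on replicate 3 and lowest on replicate 2. The dimmer ones lay at 0.81, 0.49, 0.92 and 0.56 and at -2.15, -2.77, -1.94 and -2.58. The second Rrm1 probe, at -3.03, -2.91, -2.53 and -3.07, had the same top (replicate 3) and bottom (replicate 4) as the first. The second probes of Lig1 and Rpa3 likewise followed their first. Both held for 5 of the 8. Mcm3 differed in both, since its second probe gave only 49.7, 23, 51.1 and 41 units and was highest on replicate 1 and lowest on replicate 2. With all spots, the Mcm2 probes differed in their highest array (replicate 1 for the brighter, replicate 4 for the dimmer). Those of Rrm2 differed in their lowest (replicate 2 for the brighter, replicate 3 for the dimmer). Probes of 2 genes disagreed about detection itself. Pole had 1 probe detected on all arrays, 1 on 3 arrays and 1 on none, and Gins2 had 1 on all and 1 on none. One probe on all arrays and another on none was found in 16.2% of all genes with several probes.

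Because 7 replication genes happen to be printed on 10 spots each, the uneven part of replicate 1 can be seen within single probes. The spots of Mcm2 at columns 1 to 72 averaged 5.40 on replicate 1, against 4.88 for those beyond. Lig1 differed in the same direction by 0.32 and Fen1 by 0.31. Mcm3 ran the other way, with 3.18 at columns 1 to 72 and 3.54 beyond. For Mcm7 the difference was -0.03, for Rrm1 -0.05 and for Rrm2 0.11. The same part of 1 array thus read some probes high and others low. On replicates 2 to 4 the largest difference of any of the 7 probes was -0.14, for Mcm7 on replicate 4. Within an array the SD between spots of Mcm2 was 0.30 on replicate 1 and 0.05, 0.05 and 0.07 on the others. Genes with all their spots at columns 1 to 72 numbered 8, and their median SD between arrays was 0.206 with replicate 1 and 0.148 without it. For the 18 genes with no spot there it was 0.152 with and 0.151 without.

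**Figure D5:**
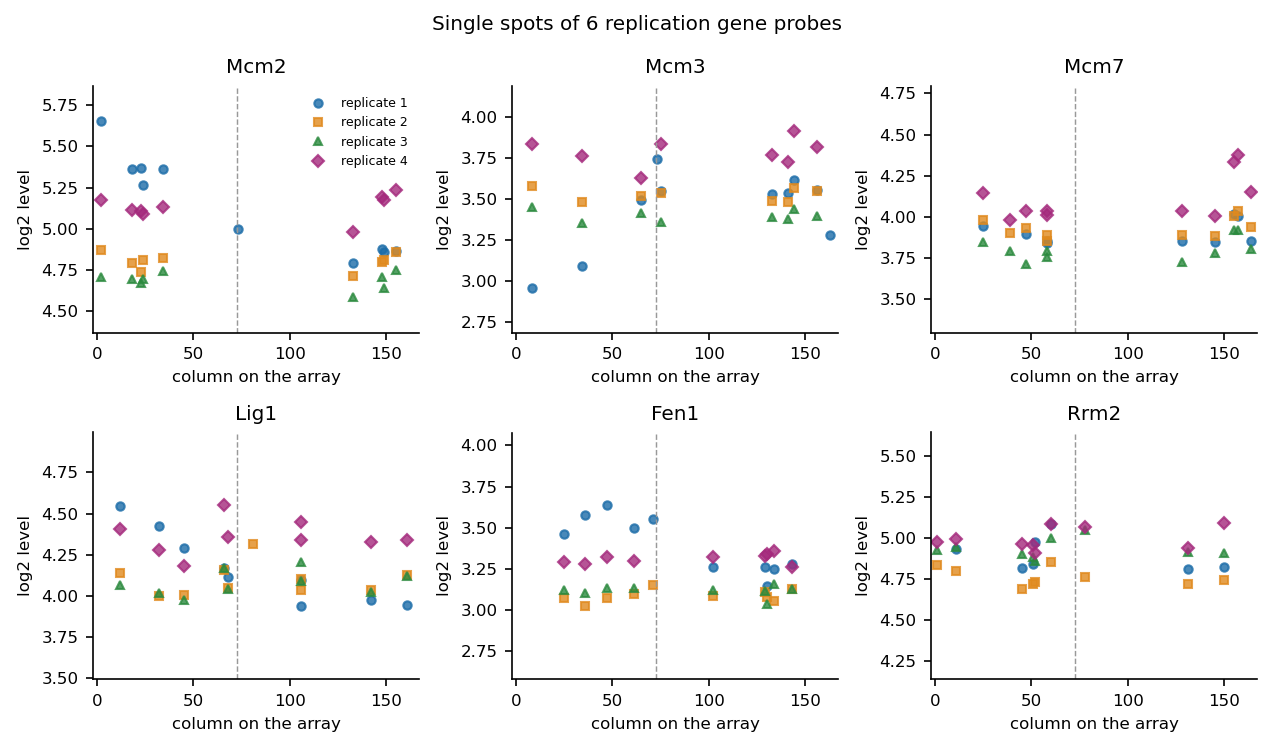
Single spots of the brightest probe of 6 replication genes, by their column on the array (horizontal axis, dashed line after column 72) and log2 level (vertical axis, the same length in each panel). Each symbol is 1 spot on 1 replicate, and spots called outliers by the scanner software are left out. On replicate 1 the spots of Mcm2, Lig1 and Fen1 average higher at columns 1 to 72 than beyond and those of Mcm3 lower, while on the other arrays no probe differs by more than the -0.14 of Mcm7.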

How the data were processed

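RNA of 4 exposed NR8383 cultures was read on 4 one-colour (Cy3) Agilent arrays of 1 slide, per the file headers. The deposited intensity values are processed signals and their error estimates from Agilent Feature Extraction 11.0.1.1, per the submitters' processing notes. Per the file headers they are background-subtracted and detrended but not scaled between arrays. Other deposited columns used were median spot and background signals and the flags, per the file headers.

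Here, spots flagged as outliers were left out (634 to 669 per array), log2 signals were set relative to the 75th percentile of their array (58717 non-control spots before flags), spots of a probe were averaged and the brightest probe stood for a gene. Accessions of 21109 of 45598 probes were named through RefSeq's GRCr8 gene table, and the array design uses an older build. A probe was detected where over 0.5 of its spots were well above background, and a gene where any probe was. The spread between arrays was assessed by an upper-tail F test against limma's prior, with Benjamini-Hochberg adjustment and a threshold of 0.05. The prior came from limma 3.58.1 under R 4.3.3 (squeezeVar, trend, robust, 24.3 prior degrees of freedom). The script was tested on simulated data, where it called 8%, 32% and 58% of genes whose SD was 2-fold, 3-fold and 4-fold. Precision is limited by the number of arrays. Members, lists, tests and the split at column 72 were chosen with earlier results of these data known. Promoter motifs were chosen after the files had been seen. The rule for named genes was that every member is accounted for by role, with values on each array for those not detected on every array, called, set apart by Dixon's ratio or of the largest or smallest SD in a role, then others in list order. Of other lists, members not detected on every array, called ones and the first 2 could be named, and Dbf4 and the genes in the closing section were chosen after their values were seen. Alternatives tried were other scalings, a normexp correction (offset 50), the mean over probes, other flags, filters and priors, and leaving out each replicate.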

Additional observations from a re-analysis of the deposited data

Results flagged for a closer look

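In 2 of the 36 detected replication genes 1 array stood apart from the other three, measured as the gap to the nearest value over the whole range, past Dixon's critical value at the 95% level, which chance alone passes in about 1 group of 20. Of all 7570 tested genes, 5.46% passed. For Pole the ratio was 0.903, as replicate 2 lay at -3.29 and the others between -2.76 and -2.70. Its second probe, detected on 3 arrays, was lowest on replicate 1 instead. For Rfc5 the ratio was 0.863, as replicate 3 lay at 0.43 and the others between 0.52 and 0.53, a gap smaller than the software error of 0.14.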

How the results depend on the processing

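The count of 36 detected replication genes was kept with the lenient flag, 1 array sufficing, the brightest probe alone, outlying spots kept and each replicate left out (29 of 31 beyond column 72). None was called more variable under any alternative, while calls among all genes ran from 0 (quantile normalization, or a prior without trend) and 1 (scale of detected probes) to 206 (normexp), with 39 as reported and also with outlying spots kept, 27 when the 75th percentile was taken with those spots too, 9 with a prior that was not robust, 127 without a filter on dim genes and 32, 77, 10 and 16 without replicate 1, 2, 3 and 4. The median SD of replication genes stayed within 0.134 to 0.157, and that of all tested genes within 0.136 to 0.177. Median deviations of replication genes moved, and the cause was not tested. After quantile normalization they were -0.024 and 0.043 on replicates 2 and 3. With the median of detected probes as scale they were -0.019, 0.057 and -0.045 on replicates 1, 3 and 4. With normexp they were 0.036, -0.052 and -0.046 on replicates 1 to 3. On replicate 3 the mean over probes gave -0.0011, and on replicate 4 outlying spots kept in both the levels and the percentile gave -0.019. Beyond column 72 replicates 3 and 4 had -0.037 and 0.037. The last 2 alternatives were chosen after seeing the data. With single replicates left out, values ran from -0.026 to 0.01161 on replicate 1, -0.031 to -0.01883 on replicate 2, -0.018 to 0.003041 on replicate 3 and -0.0042 to 0.02269 on replicate 4. Levels moved by more than their SD for 21 of 37 genes after quantile normalization, 37 with the detected median as scale, 23 with normexp, 8 with the mean over probes and 19 with the percentile taken over outlying spots too, but for 0 with those spots kept at the reported scale. Beyond column 72 levels moved that far for 2 of 31 genes, Gins2 to -5.14 and Tk1 to 0.65, each read from another probe. The detected median shifted all levels alike, by -1.36, and quantile normalization by -0.17 to -0.13. With the mean over probes Mcm3 fell to 0.040, against 3.53 as reported, and Rrm1 to 0.13, against 3.14, and with normexp Orc1 lay at -2.34, against -3.81. No paired analysis was possible because there is 1 group. Dim probes such as those of Orc1 and Pola1 are limited by signal over background.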

Other observations

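Genes of mitosis and the kinetochore, which act after replication, were measured on the same arrays. Of 20 detected ones 11 were highest on replicate 3, where 19% of all tested genes were highest, and their median deviation on replicate 3 was 0.11, against -0.077 over all tested genes. Mki67, a marker of dividing cells, lay at -1.05, -1.14, -0.15 and -1.10, Kif11, a spindle motor gene, at -2.24, -2.50, -1.47 and -2.29, and Ttk, a checkpoint kinase gene, at -2.64, -3.01, -2.11 and -3.16. Others did not follow, as 2 of the 20, Plk1 and Tpx2, were lowest on replicate 3. Kif20a was even, at 2.79, 2.72, 2.71 and 2.67, and so was Birc5, at 2.62, 2.72, 2.65 and 2.70. Mean levels were low for Mki67 (-0.86), Kif11 (-2.12) and Ttk (-2.73) and high for Plk1 (3.94), Kif20a (2.72) and Birc5 (2.67). Tpx2 (-1.94) was dim too, and the brighter genes Incenp (1.37) and Prc1 (0.83) were highest on replicate 3. Whether a top on replicate 3 follows probe brightness was not tested. No mitosis gene had an adjusted p under 0.05 by the variance test on limma's prior. By that test 5 of the 20 had an unadjusted p under 0.05, as did 6.67% of all tested genes. The genes named in this paragraph were chosen after their values were seen.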
